A study of Caenorhabditis elegans with 11 samples.

Results

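The genes described here make the neurotransmitters of Caenorhabditis elegans or load them into synaptic vesicles. They were chosen by name as the 10 genes unc-17, cha-1, unc-25, unc-47, eat-4, cat-1, cat-2, tph-1, tdc-1 and tbh-1. A transcript cluster, the probe group that an Affymetrix array reads as 1 unit, carried the symbol of 9 of them, out of 27055 clusters with a gene name, and cha-1 was the gene with no cluster of its own. RNA came from whole animals of the wild-type strain N2, synchronised by bleaching and collected as young adults at 3 days of age. The betalain groups had been kept for 48 h at 20 °C in S medium with 25 uM of 1 pigment, starting 16 to 18 h after hatching, and the control group was not treated. The groups were control (2 arrays), indicaxanthin (3 arrays), indoline carboxylic acid-betacyanin (3 arrays) and phenylalanine-betaxanthin (3 arrays). Betalains are the yellow and violet pigments of cacti and beets. Indicaxanthin is the betaxanthin that carries proline, phenylalanine-betaxanthin carries phenylalanine in its place, and the third compound carries indoline carboxylic acid and is called indoline-betacyanin below.

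A neuron is assigned to a transmitter class by the enzymes and transporters it expresses. Choline acetyltransferase (cha-1) makes acetylcholine and the vesicular transporter UNC-17 loads it, glutamic acid decarboxylase (unc-25) makes GABA and UNC-47 loads it, and EAT-4 loads glutamate. CAT-1 loads all monoamines, while CAT-2 and TPH-1 carry out the first step towards dopamine and serotonin, and TDC-1 and then TBH-1 turn tyrosine into tyramine and octopamine. Most of these genes are expressed in neurons, but in adults tdc-1 and tbh-1 are also expressed in the sheath cells of the somatic gonad, and tdc-1 also in the uv1 cells of the uterus.

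Values are log2 RMA expression, as the authors deposited them, listed by independent trial number within a group. A change counts as called where the limma adjusted p (Benjamini-Hochberg over 20291 clusters) was below 0.05. Each member is compared only with itself across arrays, because the brightness of one cluster cannot be set against that of another. In RNA from whole animals, fewer cells of a type and less RNA per cell cannot be told apart. The labels call the arrays of a group independent trials, without saying which animals a trial shares, so a p-value here reflects only how far these arrays spread.

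The third indicaxanthin array stood apart from its group. Its correlation with the other indicaxanthin arrays over all named clusters was 0.808 and 0.817, against up to 0.995 with a phenylalanine-betaxanthin array, while arrays of every other group correlated at 0.988 or more with each other. The arrays also split by stage markers. The genes vit-1 to vit-6 encode yolk proteins and are expressed by adult hermaphrodites; averaged, the 6 read 10.04, 10.01 and 10.07 with phenylalanine-betaxanthin and 10.09 on the third indicaxanthin array. On the other 7 arrays the average lay between 1.56 and 3.17. The mean of 15 oocyte and eggshell genes split the same arrays, at 8.28 to 8.47 against 2.12 to 2.74. The mean of 19 moulting genes was 4.36 to 5.18 on the 4 arrays with high yolk genes and 6.12 to 7.08 on the others. The adult label was therefore not matched by yolk expression on the 7 arrays with low yolk genes, which include both controls and every indoline-betacyanin array. Within the arrays with low yolk genes, the moulting mean was 7.05 and 7.08 in control and 6.12, 6.17 and 6.23 with indoline-betacyanin. Calls of the members are given with all 11 arrays and, where they differ, without the third indicaxanthin array. The authors' deposited tables for the indoline-betacyanin and phenylalanine-betaxanthin comparisons were computed over 3 arrays per group, so they include 1 further control that is not among the arrays analysed here, while the table for indicaxanthin was computed over 2.

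Transcripts of tdc-1 and tbh-1 showed the widest range of the members. For tdc-1, tyrosine decarboxylase, the control arrays read 2.08 and 1.84, indicaxanthin 1.51, 1.59 and 5.26, indoline-betacyanin 1.51, 1.49 and 1.36, and phenylalanine-betaxanthin 5.42, 5.67 and 5.62. For tbh-1, tyramine beta-hydroxylase, the controls read 1.69 and 1.55, indicaxanthin 1.75, 1.45 and 7.18, indoline-betacyanin 1.54, 1.71 and 1.48, and phenylalanine-betaxanthin 7.36, 7.63 and 7.40. Both genes were therefore high on the same 4 arrays as the yolk protein genes and low on the other 7, with no array between. On those 7 arrays their means were 1.63 for tdc-1 and 1.60 for tbh-1, just above the level of 1.52 that a cluster had to pass to be tested. No detection call comes with these values, so whether the low arrays rise above background is unknown. Each log2 difference from them is given as measured on the RMA scale, and it may understate a difference in transcript level.

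**Figure D1:**
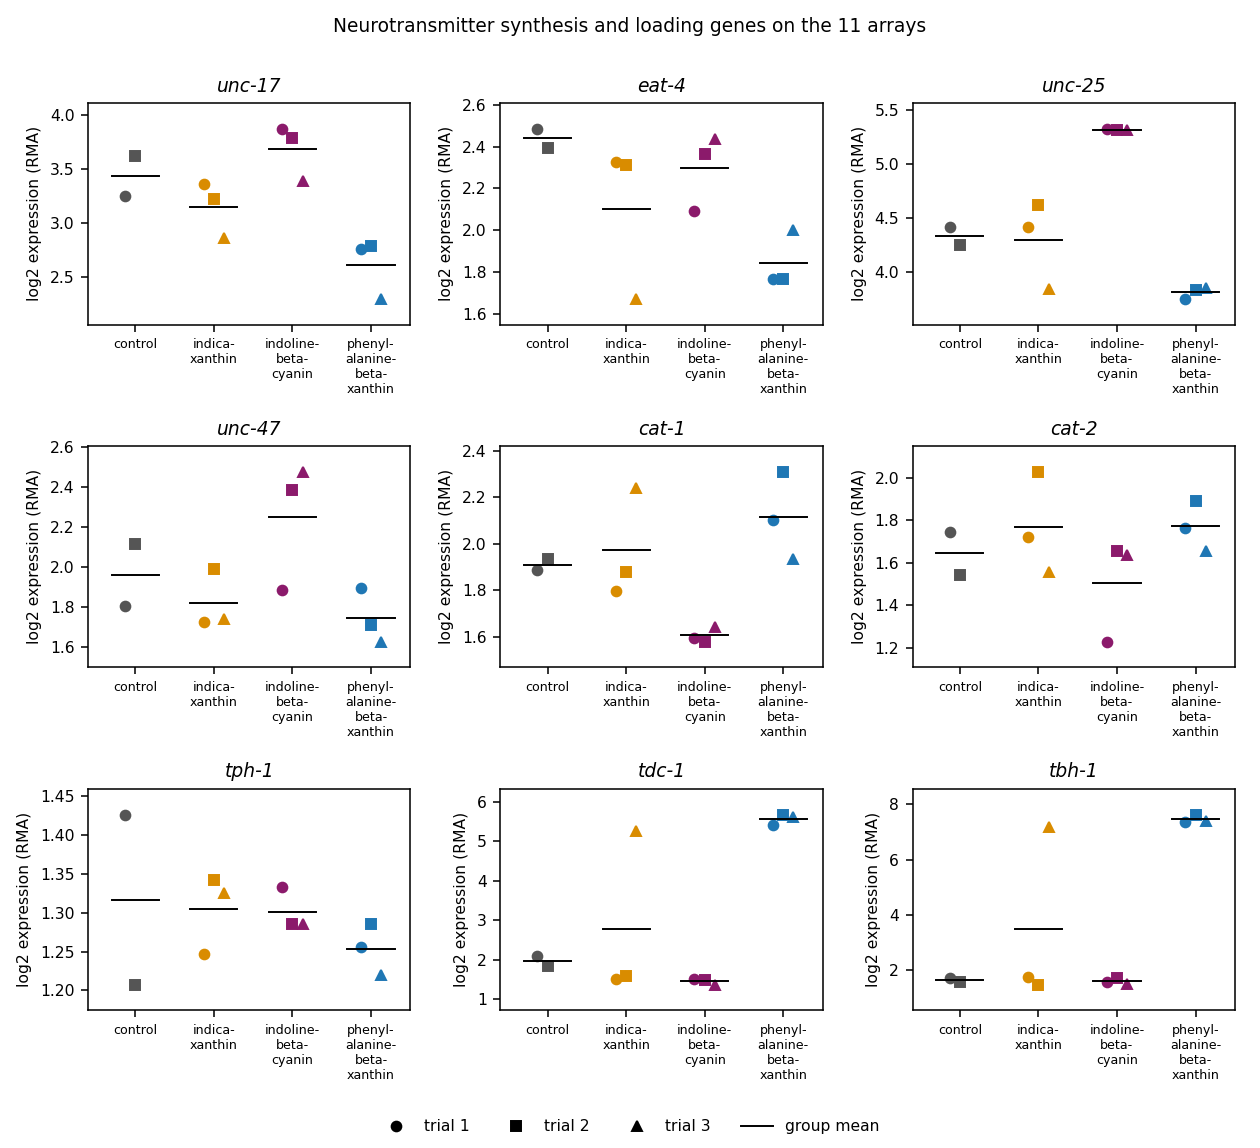
Log2 RMA expression (vertical axes, scaled to each gene) of the 9 genes with a cluster, by group (horizontal axis); the marker shape gives the trial number and the bar the group mean over 2 control arrays or 3 treated arrays. In tdc-1 and tbh-1 the third indicaxanthin array sits with phenylalanine-betaxanthin, and in unc-25 all 3 indoline-betacyanin arrays lie above every other array.

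Against control, with phenylalanine-betaxanthin, 2 members rose and 1 fell. Of the 8 members tested, 3 were called, beside 44.6% of all tested clusters. Transcripts of tbh-1 rose by 5.84 on the log2 scale (SE 1.40, 3 against 2 arrays, limma adjusted p = 0.0179). Those of tdc-1 rose by 3.61 (SE 0.93, limma adjusted p = 0.0203). The third indicaxanthin array widened both errors, and without it the SE was 0.15 for tbh-1 (limma adjusted p = 5.28e-10) and 0.14 for tdc-1 (limma adjusted p = 2.61e-09). Both calls were lost when either control, or the first or second phenylalanine-betaxanthin array, was left out, with limma adjusted p up to 0.0996 for tbh-1 and 0.102 for tdc-1. In the authors' deposited table, over 3 arrays per group, the ratio to control was 13.9 for tbh-1 (p = 0.111) and 4.14 for tdc-1 (p = 0.139). Its control group includes the further control, which lay far above both controls analysed here. That control was back-calculated at 7.33 and 7.78 for tbh-1 and at 6.60 and 6.63 for tdc-1.

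The gonad, the other site of expression of these genes in adults, was read through 9 markers of the sheath and spermatheca. Their mean log2 level was 3.37 and 3.47 in control, 4.36, 4.37 and 4.27 with phenylalanine-betaxanthin, 3.43, 3.29 and 4.34 on the 3 indicaxanthin arrays, and 3.69, 3.80 and 3.78 with indoline-betacyanin. The indoline-betacyanin means lay above both controls, and tdc-1 and tbh-1 were low on the same arrays. Against control 1 of the 9 markers was called with indoline-betacyanin, beside 17.3% of all tested clusters. It was lim-7, a sheath homeobox gene, which rose by 0.71 (SE 0.21, limma adjusted p = 0.046). With phenylalanine-betaxanthin 5 of the 9 rose and 4 fell against control, beside 44.6% of all tested clusters called. The median change was 0.76, beside -0.05 over all tested clusters. The innexin gene inx-8, whose product forms gap junctions between sheath cells and germ cells, read 2.58 and 2.34 in control and 7.51, 7.51 and 7.49 with phenylalanine-betaxanthin. It read 1.49, 1.66 and 7.68 with indicaxanthin and 1.52, 1.80 and 1.33 with indoline-betacyanin. Its partner inx-9 rose by 2.80 (SE 0.73, limma adjusted p = 0.0206), while lim-7 fell by 0.90 (SE 0.21, limma adjusted p = 0.0164). The part of gonad cells and of stage in the tdc-1 and tbh-1 values was not tested.

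**Figure D2:**
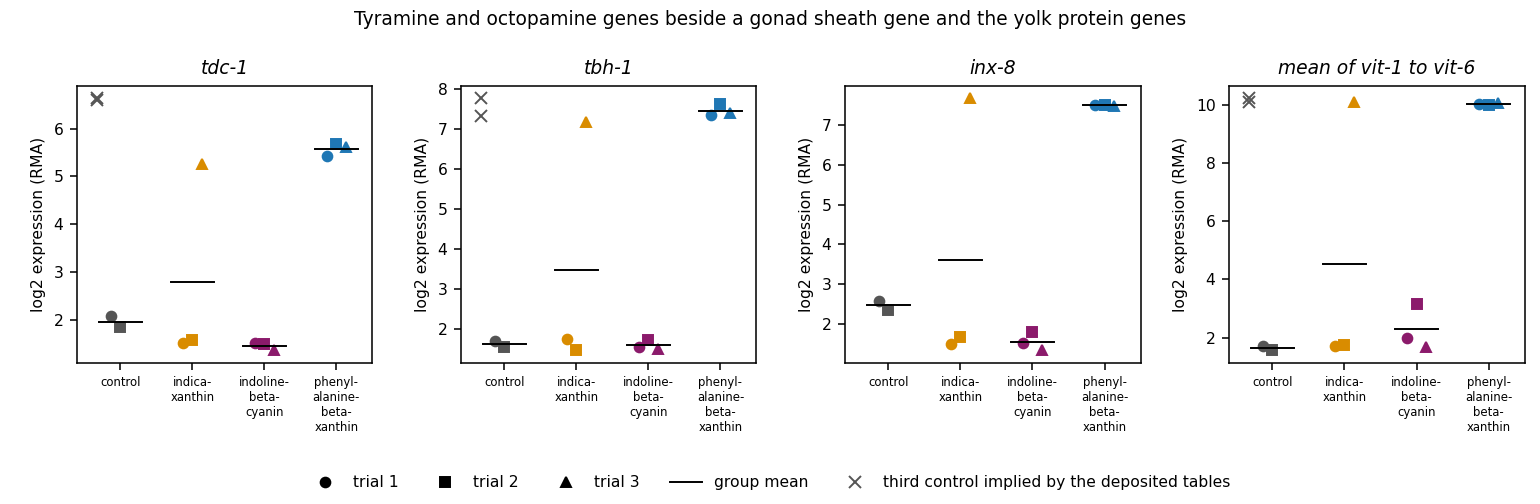
Log2 RMA expression of tdc-1, tbh-1, the sheath innexin gene inx-8 and the mean of the 6 yolk protein genes, by group. Marker shapes give the trial and bars the group mean. The gene inx-8 was chosen from 9 sheath and spermatheca markers after its values were seen. Of those 9, 5 rose and 4 fell with phenylalanine-betaxanthin against control. Crosses mark the approximate level of 1 further control back-calculated from the authors' deposited tables, 1 cross per table. For tdc-1, tbh-1 and the yolk genes it lies above the 2 controls and, in tdc-1, above all 11 arrays. No cross is drawn for inx-8.

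Between compounds, tdc-1 and tbh-1 were lower with indoline-betacyanin than with phenylalanine-betaxanthin, with measured log2 changes, from levels near the bottom of the scale, of -4.12 (95% interval -6.01 to -2.22) and -5.88 (95% interval -8.72 to -3.05). The limma adjusted p was 0.00531 for tdc-1 and 0.00629 for tbh-1, and these calls held whichever array was left out, with limma adjusted p of at most 0.0242. The betaxanthin pair differs in its amino acid, phenylalanine or proline. There the fit over all arrays gave tbh-1 4.003 higher (95% interval 1.17 to 6.84) and tdc-1 2.78 higher (95% interval 0.89 to 4.68) with phenylalanine-betaxanthin than with indicaxanthin, both with a limma adjusted p of 0.14. Without the third indicaxanthin array the differences were 5.86 (limma adjusted p = 4.23e-10) and 4.02 (limma adjusted p = 1.43e-09). The outcome for this pair therefore turned on 1 array.

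The other genes of the monoamine classes had narrower ranges. The cat-1 gene of the vesicular monoamine transporter read 1.89 and 1.93 in control, 1.80, 1.88 and 2.24 with indicaxanthin, 1.60, 1.58 and 1.64 with indoline-betacyanin and 2.10, 2.31 and 1.93 with phenylalanine-betaxanthin. All 3 indoline-betacyanin arrays lay below every other array, but the difference from control, -0.31 (SE 0.17), was not called (limma adjusted p = 0.29). It was called against phenylalanine-betaxanthin, where the log2 change of cat-1 was -0.51 (95% interval -0.85 to -0.17, limma adjusted p = 0.0211). That call was lost without any 1 of the indoline-betacyanin arrays or without the first or second phenylalanine-betaxanthin array, with limma adjusted p up to 0.0789.

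Tyrosine hydroxylase, cat-2, read 1.75 and 1.54 in control, 1.72, 2.03 and 1.56 with indicaxanthin, 1.23, 1.65 and 1.64 with indoline-betacyanin, and 1.76, 1.89 and 1.66 with phenylalanine-betaxanthin. Control and treated arrays overlapped for each compound, and no comparison called it. Tryptophan hydroxylase, tph-1, stayed between 1.21 and 1.43 on all 11 arrays, a mean of 1.29 that fell under the level for testing. These 2 genes are each expressed in a handful of neurons of the whole animal, and at this signal a change in either may not be detectable.

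Genes that act beside them in monoamine metabolism were called in some comparisons. The aromatic amino acid decarboxylase gene bas-1, which serves both dopamine and serotonin synthesis, read 5.67 and 5.87 in control and 4.76, 5.04 and 4.93 with indoline-betacyanin, where it fell by 0.86 (SE 0.15, limma adjusted p = 0.00397). GTP cyclohydrolase, cat-4, which makes a cofactor of both hydroxylases, read 6.81 and 6.98 in control and 6.26, 6.57 and 6.30 with indoline-betacyanin (log2 change -0.52, limma adjusted p = 0.16). The cofactor gene ptps-1 read 5.90 and 6.07 in control and 7.04, 7.23 and 7.02 with phenylalanine-betaxanthin, where it rose by 1.11 (SE 0.21, limma adjusted p = 0.00928). In the same comparison qdpr-1, which recycles that cofactor, fell by 0.80 (SE 0.22, limma adjusted p = 0.0224). The dopamine transporter gene dat-1 lay between 1.20 and 1.54 on all arrays.

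With indoline-betacyanin the member that rose against control was the gene of GABA synthesis. The unc-25 cluster read 4.42 and 4.26 in control, 4.42, 4.63 and 3.84 with indicaxanthin, 5.33, 5.32 and 5.32 with indoline-betacyanin, and 3.75, 3.83 and 3.85 with phenylalanine-betaxanthin. All indoline-betacyanin arrays lay above every other array, and all phenylalanine-betaxanthin arrays lay below both controls. The third indicaxanthin array read within the phenylalanine-betaxanthin range for this gene. Against the same controls, 6 of 19 moulting genes fell and 1 rose with indoline-betacyanin, a share of 36.8% beside 17.3% of all tested clusters. Their median log2 change was -0.71. Without the third indicaxanthin array 10 fell and 3 rose, beside 35.4% of clusters. The part of stage in the unc-25 value was not tested.

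Against control, unc-25 rose by 0.98 with indoline-betacyanin (SE 0.21, 95% interval 0.51 to 1.46, limma adjusted p = 0.011), a 1.98-fold difference. It was the 1 member called of 8 tested, beside 17.3% of all tested clusters, and it lost its call without either control (limma adjusted p up to 0.079). Without the third indicaxanthin array its limma adjusted p was 0.000107, and tdc-1, which then fell by 0.51 (SE 0.14, limma adjusted p = 0.0138), was also called, at levels of 1.36 to 1.51 that lie under the 1.52 used for testing. That made 2 of 8, beside 35.4% of clusters. The authors' deposited table gave unc-25 a ratio to control of 2.38 (unadjusted p of that table = 0.00734). Its control group includes the further control, back-calculated at 3.55 and 3.70 for unc-25, below both controls analysed here.

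The same gene separated the compounds. It was higher with indoline-betacyanin than with indicaxanthin by 1.03 (95% interval 0.60 to 1.45, limma adjusted p = 0.00702), the 1 member of 8 called in that pair, beside 14.2% of clusters. The difference was 0.80 without the third indicaxanthin array (limma adjusted p = 0.000716), again 1 of 8 members, beside 27.8% of clusters. It was higher than with phenylalanine-betaxanthin by 1.51 (95% interval 1.09 to 1.93, limma adjusted p = 0.000672), and both calls held whichever array was left out. A fit of the 2 groups alone ended the call against indicaxanthin (limma adjusted p = 0.0757). With phenylalanine-betaxanthin the log2 change of unc-25 from control was -0.53 (SE 0.21, limma adjusted p = 0.0668), which was called without the third indicaxanthin array (limma adjusted p = 0.0037).

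The vesicular GABA transporter gene unc-47 gave smaller differences. It read 1.80 and 2.12 in control, 1.73, 1.99 and 1.74 with indicaxanthin, 1.88, 2.38 and 2.48 with indoline-betacyanin and 1.89, 1.71 and 1.62 with phenylalanine-betaxanthin. Its difference from control with indoline-betacyanin was 0.29 (95% interval -0.18 to 0.75), and treated and control arrays overlapped. Against phenylalanine-betaxanthin it was 0.51 higher (limma adjusted p = 0.0478) although the first indoline-betacyanin array lay below the first phenylalanine-betaxanthin array. That call was lost in 8 of the 11 fits that left out 1 array, with limma adjusted p up to 0.16.

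The gene lists hold 9 further genes of GABA handling, reception or neuron identity, a grouping made after their values were seen. Against control 5 of them rose and 0 fell with indoline-betacyanin, beside 17.3% of all tested clusters called, and 0 rose and 5 fell with phenylalanine-betaxanthin, beside 44.6%. The gene of the membrane GABA transporter snf-11, which takes the transmitter back up, read 2.26 and 2.14 in control and 3.76, 3.92 and 3.63 with indoline-betacyanin (log2 change 1.58, SE 0.18, limma adjusted p = 0.000338). The gene unc-46, whose product sorts UNC-47 to synaptic vesicles, read 1.84 and 2.03 in control and 3.12, 3.34 and 3.20 with indoline-betacyanin (log2 change 1.29, SE 0.26, limma adjusted p = 0.00842). Neither gene's indoline-betacyanin arrays overlapped any other group, and the share of all clusters for which this holds was not computed.

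The others that rose were lgc-35, unc-30 and unc-49. The GABA-gated channel gene lgc-35 read 3.10 and 3.26 in control and 5.94, 5.76 and 5.64 with indoline-betacyanin, a rise of 2.60 (SE 0.24, limma adjusted p = 0.000126). The homeobox gene unc-30, which sets the identity of the D-type GABA motor neurons and is known to drive unc-25 there, read 2.23 and 2.43 in control and 3.39, 2.80 and 3.36 with indoline-betacyanin, a rise of 0.85 (SE 0.22, limma adjusted p = 0.026). The GABA receptor gene unc-49 rose by 0.88 with indoline-betacyanin (SE 0.23, limma adjusted p = 0.0306) and fell by 1.41 with phenylalanine-betaxanthin (SE 0.23, limma adjusted p = 0.00449). The remaining 4 were not called with indoline-betacyanin, at log2 changes of 0.35 for the channel gene exp-1, 0.55 and -0.58 for the GABA-B receptor genes gbb-1 and gbb-2, and -0.40 for the transaminase gene gta-1, which breaks GABA down.

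**Figure D3:**
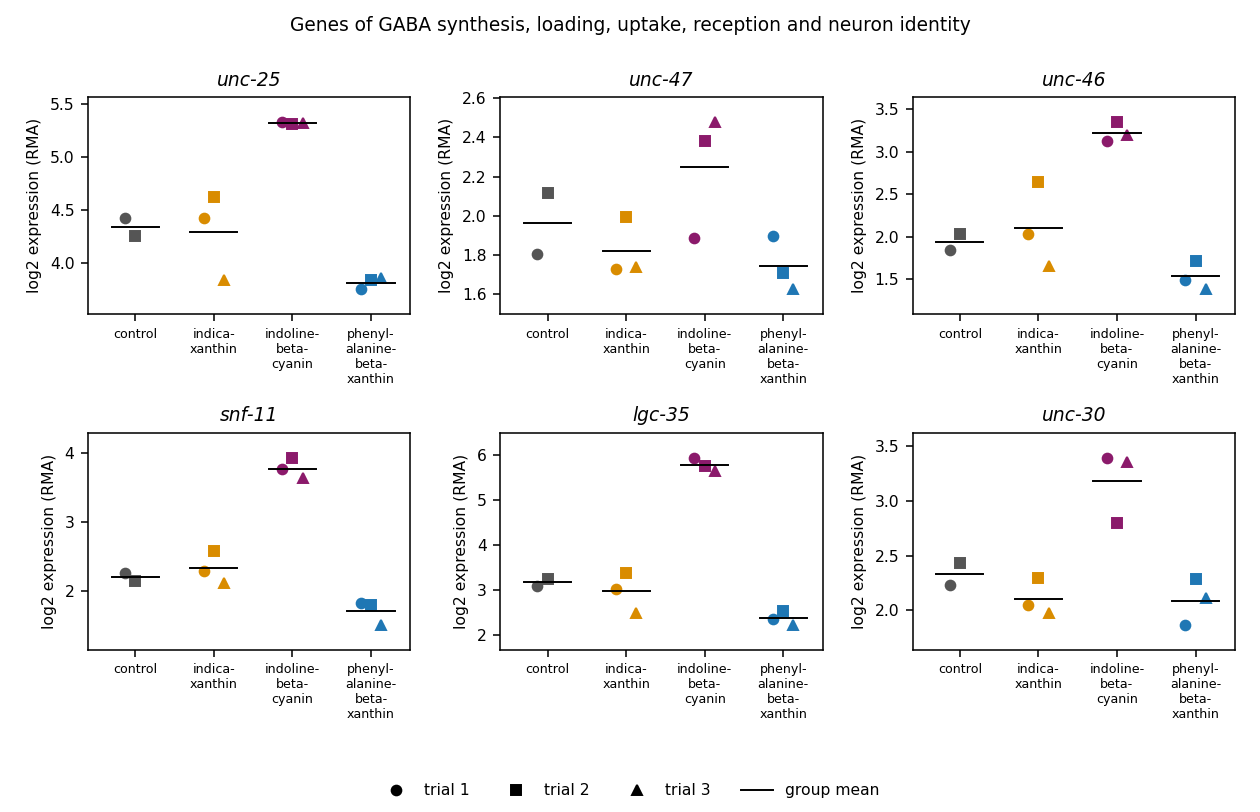
Log2 RMA expression (vertical axes, scaled to each gene) of 6 genes of GABA synthesis, vesicle loading, uptake, reception and neuron identity, by group; marker shapes give the trial and bars the group mean. The indoline-betacyanin arrays lie above all other arrays in unc-25, unc-46, snf-11, lgc-35 and unc-30, and overlap them in unc-47. The genes drawn beside the members were chosen after their values were seen. The GABA genes exp-1, gbb-1, gbb-2 and gta-1, not called with indoline-betacyanin against control, are not drawn, and nor is unc-49. The share of all clusters with such a separation was not computed.

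The vesicular acetylcholine transporter gene unc-17 read 3.25 and 3.61 in control, 3.36, 3.22 and 2.86 with indicaxanthin, 3.87, 3.79 and 3.39 with indoline-betacyanin and 2.75, 2.79 and 2.29 with phenylalanine-betaxanthin. The phenylalanine-betaxanthin arrays lay below every other array. Against control unc-17 fell by 0.82 (SE 0.24, 95% interval of the change -1.36 to -0.28, limma adjusted p = 0.0255), a call that was lost when any control or phenylalanine-betaxanthin array was left out (limma adjusted p up to 0.15). The authors' deposited table gave a ratio to control of 0.703 (p = 0.241). Its control group includes the further control, back-calculated at 2.85 and 2.49 for unc-17, below both controls analysed here. The part of stage in the unc-17 value was not tested. Transcripts of unc-17 were 1.07 higher with indoline-betacyanin than with phenylalanine-betaxanthin (95% interval 0.59 to 1.55, limma adjusted p = 0.0048), and here the call held whichever array was left out. In the RefSeq annotation WBcel235 the spans of unc-17 and cha-1 overlap, so signal of this cluster may in part be shared with cha-1.

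Of the genes around the cholinergic synapse, the acetylcholinesterase gene ace-2 fell by 0.98 with phenylalanine-betaxanthin (SE 0.26, limma adjusted p = 0.0208), from 3.51 and 3.55 to 2.70, 2.50 and 2.43. The identity factor of cholinergic motor neurons, unc-3, fell by 2.45 (SE 0.50, limma adjusted p = 0.0115), from 4.81 and 4.93 to 2.40, 2.24 and 2.61, and read 2.11 on the third indicaxanthin array. The part of stage in the ace-2 and unc-3 values was not tested. The choline transporter gene cho-1 read 2.15 and 2.43 in control and 2.76, 3.18 and 3.37 with indoline-betacyanin (log2 change 0.82, limma adjusted p = 0.059).

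The vesicular glutamate transporter gene eat-4 read 2.48 and 2.39 in control, 2.32, 2.31 and 1.67 with indicaxanthin, 2.09, 2.37 and 2.43 with indoline-betacyanin and 1.77, 1.76 and 2.00 with phenylalanine-betaxanthin. The third indicaxanthin array was again the low one of its group. The further control was back-calculated at 1.35 and 1.91 for eat-4, below both controls analysed here. With phenylalanine-betaxanthin the log2 change of eat-4 from control was -0.60 (SE 0.22, limma adjusted p = 0.0503), and without the third indicaxanthin array this was called (SE 0.15, limma adjusted p = 0.00393). In this comparison 5 of 8 members were then called, beside 61% of all tested clusters.

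Indicaxanthin against control called 0 of the 8 members by limma, beside 6.2% of all tested clusters called. An unadjusted p under 0.05 was found for 0 members, and the share of all clusters at that level was not computed, here or without the third array. The intervals allowed log2 changes of -0.52 to 0.43 for unc-25 and -0.82 to 0.25 for unc-17, but -1.33 to 5.01 for tbh-1. Without the third array again 0 of 8 were called, beside 10.5% of clusters, 1 of them (tdc-1, log2 change -0.41, limma adjusted p = 0.119) with an unadjusted p under 0.05. The tbh-1 interval then narrowed to -0.38 to 0.34. The authors' deposited table for indicaxanthin, which lists clusters with p under 0.05, holds 1 member, cat-1, at a ratio to control of 0.912 (p = 0.0485).

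Indoline-betacyanin against phenylalanine-betaxanthin had the highest count of called members of the 6 comparisons. Of 8 members tested, 6 were called, beside 47.3% of all tested clusters. The genes unc-17, unc-25 and unc-47 were higher with indoline-betacyanin, and cat-1, tdc-1 and tbh-1 were lower. When the third indicaxanthin array was left out eat-4 was added, at 0.45 higher with indoline-betacyanin (limma adjusted p = 0.0101), for 7 of 8 beside 59% of clusters. Between phenylalanine-betaxanthin and indicaxanthin limma called 0 of 8 beside 0% of clusters. An unadjusted p under 0.05 was found for 4 members, but the share of all clusters at that level was not computed. Leaving out the third indicaxanthin array gave 5 of 8, beside 55.1% of clusters, with unc-17 (-0.68), unc-25 (-0.71) and eat-4 (-0.47) lower and tdc-1 and tbh-1 higher with phenylalanine-betaxanthin.

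**Figure D4:**
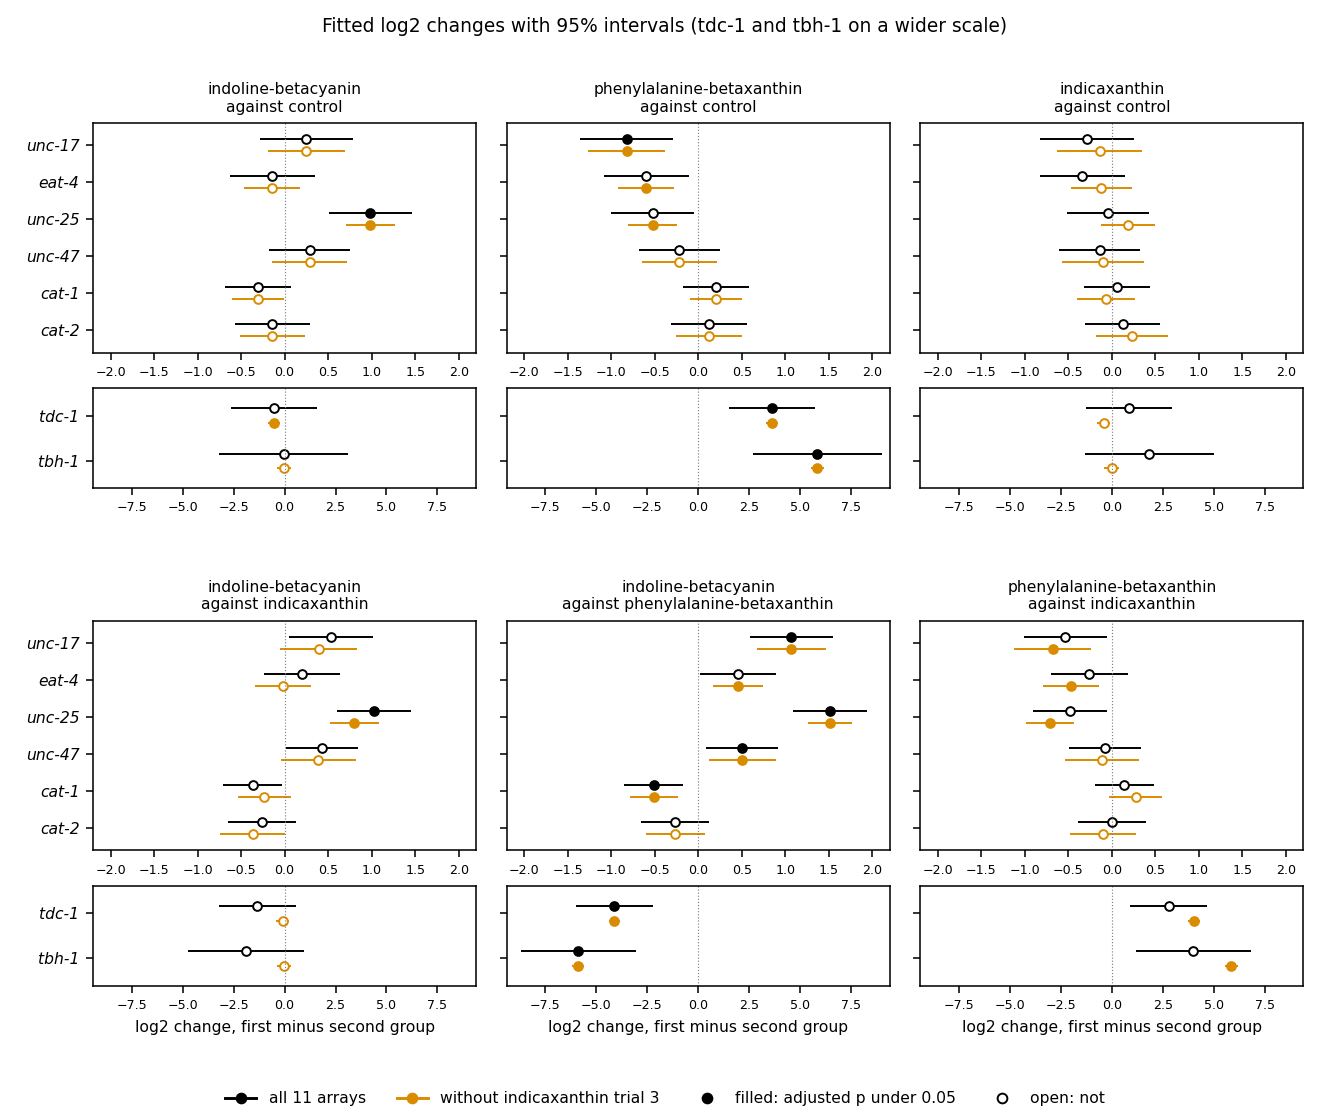
Fitted log2 changes (horizontal axes) of the 8 tested members in the 6 comparisons with 95% intervals, black for all 11 arrays and orange without the third indicaxanthin array; filled points have a limma adjusted p under 0.05. The intervals for tdc-1 and tbh-1 are narrower without that array, and unc-25 is called in every comparison that involves indoline-betacyanin.

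Lists of neuronal genes were read on the same arrays. The mean log2 level of 17 pan-neuronal genes was 5.70 and 5.88 in control, 6.44, 6.31 and 6.35 with indoline-betacyanin, 4.96, 5.01 and 5.07 with phenylalanine-betaxanthin and 5.89, 5.50 and 4.94 with indicaxanthin. The part of this list-wide difference in the member values was not tested. The further control, back-calculated from the authors' tables, gave 5.03 and 4.92 for this list, below both controls analysed here and near phenylalanine-betaxanthin. It was also below both for synaptic release (4.58 and 4.55, against 5.36 and 5.56) and transmitter receptors (2.33 and 2.24, against 2.74 and 2.81). The same held for identity factors (2.525 and 2.466, against 3.295 and 3.42). With indoline-betacyanin 0 of the 17 pan-neuronal genes were called by limma against control, beside 17.3% of all tested clusters. Their median log2 change was 0.52, beside 0.02 over all tested clusters. In that comparison 3 of the 17 had an unadjusted p under 0.05, a share not computed over all clusters. With phenylalanine-betaxanthin 2 rose and 10 fell, beside 44.6% of clusters called, with a median of -1.02, beside -0.05 over all tested clusters. Among them the peptide-processing genes egl-3 and egl-21 fell by 1.94 and 2.02 (limma adjusted p = 0.0197 and 0.0191). In the fit without the third indicaxanthin array 7 of the 17 rose with indoline-betacyanin, beside 35.4% of clusters called, and 2 rose and 11 fell with phenylalanine-betaxanthin, beside 61%.

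Of 21 genes of synaptic release, 4 rose and 0 fell with indoline-betacyanin, a share of 19% near the 17.3% of all tested clusters, with a median log2 change of 0.58. They were the calcium channel gene unc-2 (1.16), the endophilin gene unc-57 (1.13), the active zone gene unc-10 (1.47) and the vesicle kinesin gene unc-104 (1.71), with limma adjusted p from 0.00177 to 0.0305. This became 12 of the 21, beside 35.4% of clusters, without the third indicaxanthin array. With phenylalanine-betaxanthin 2 rose and 15 fell, beside 44.6% of clusters (3 and 15 without that array, beside 61%), with a median of -0.99, among them the tomosyn gene tom-1 by 0.96 and the active zone gene syd-2 by 1.19 (limma adjusted p = 0.0152 and 0.0206).

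Of 44 transmitter receptor genes tested, 11 rose and 1 fell with indoline-betacyanin, a share of 27.3% beside 17.3% of all tested clusters, with a median of 0.36. Leaving out the third indicaxanthin array gave 17 and 2, beside 35.4% of clusters. The dopamine receptor gene dop-1 read 3.58 and 4.13 in control and 6.26, 6.18 and 6.16 with indoline-betacyanin, a rise of 2.34 (SE 0.26, limma adjusted p = 0.000298). The receptor gene dop-4 rose by 1.36 (SE 0.15, limma adjusted p = 0.000336), and the serotonin receptor gene ser-5 fell by 1.46 (SE 0.16, limma adjusted p = 0.000291). With phenylalanine-betaxanthin 0 rose and 13 fell, a share of 29.5% below the 44.6% of all tested clusters, with a median of -0.34. Leaving out that array gave 0 and 19, beside 61%. Here dop-1 fell by 1.17 and ser-5 by 1.16, and the serotonin-gated channel gene mod-1 fell by 0.83 (limma adjusted p = 0.0145, 0.00161 and 0.0186). For ser-5 the arrays of all 3 compounds, at 2.52 to 2.87, lay below both controls, at 4.26 and 3.72.

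Of 27 tested genes that act beside the members in making, taking up or breaking down transmitters, 3 rose and 2 fell with indoline-betacyanin, and 2 rose and 8 fell with phenylalanine-betaxanthin. These shares, 18.5% and 37%, lay near and below the 17.3% and 44.6% of all tested clusters, and the medians were 0.26 and -0.49. Without the third indicaxanthin array 11 rose and 3 fell with indoline-betacyanin, beside 35.4% of clusters, and 3 rose and 15 fell with phenylalanine-betaxanthin, beside 61%. Of 22 identity factors of neuron classes, 4 rose and 2 fell with indoline-betacyanin (median 0.41), and 1 rose and 13 fell with phenylalanine-betaxanthin (median -0.60), beside 17.3% and 44.6% of clusters. Without that array the counts were 7 and 3, beside 35.4%, and 1 and 14, beside 61%. The zinc finger gene egl-46 rose by 0.81 with the first and fell by 1.39 with the second (limma adjusted p = 0.02 and 0.00174). The homeobox gene unc-42 fell with both, by 0.92 and 0.93 (limma adjusted p = 0.0112 and 0.0129). These comparisons share the 2 control arrays.

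**Figure D5:**
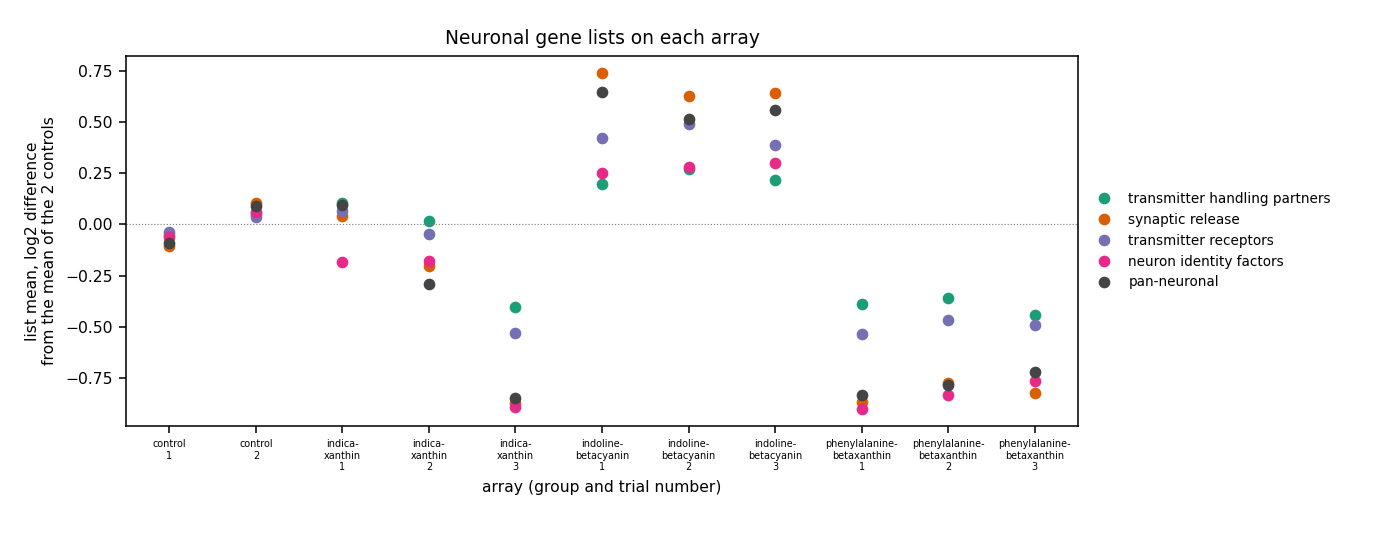
Mean log2 level of 5 neuronal gene lists on each of the 11 arrays (horizontal axis, group and trial), as the difference from the mean of the 2 controls (vertical axis). On the 3 indoline-betacyanin arrays all 5 list means lie above 0, and on the 3 phenylalanine-betaxanthin arrays and the third indicaxanthin array all lie below 0.

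Among all tested clusters, those whose pattern over the 11 arrays came nearest to a member were found by the root mean square (RMS) log2 difference after each cluster's own mean was removed. For tdc-1 they were W06B4.1 (RMS difference 0.156) and hpo-40 (0.173), and 459 clusters lay within 0.5. For tbh-1 they were the collagen gene col-181 (0.17) and D2030.7 (0.187), with 128 clusters within 0.5. For unc-25 they were the TRP channel gene trp-1 (0.114) and K01F9.2 (0.117), with 3678 clusters within 0.5. The members with small ranges had still more such neighbours, 7134 for unc-17 (nearest ZC487.1 and lgc-47) and 9681 to 10003 for unc-47 (math-46, ZC123.9), eat-4 (K04C1.3, W01B11.7), cat-1 (grl-30, cutl-12) and cat-2 (C33F10.14, srh-266). The RMS of these members around their own means was 0.195 to 0.461. A cluster that does not vary would therefore also lie within 0.5 of them. For tph-1 the nearest were str-25 (0.0496) and T24D5.8 (0.05), little closer than its own RMS of 0.0596, so they show no shared pattern.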

How the data were processed

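Per the labels' protocols, whole-animal RNA was labelled with the GeneChip WT Pico kit for Affymetrix arrays. The authors deposited log2 expression values summarised by RMA, per the submitters' processing notes. The build behind the array was not given in the sources used here. For each cluster, the authors' deposited tables also give a ratio (fold) and an unadjusted p-value, with F scores and sums of squares as further deposited scores. Those tables named the clusters (27055 of 29317, of which 26811 matched RefSeq WBcel235). The further control described in the text was back-calculated from them. Groups and trial numbers came from the sample titles.

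The deposited log2 values were fitted without further normalization with limma 3.58.1 in R 4.3.3 (lmFit, eBayes, two-sided, 7 residual degrees of freedom), all 11 arrays in 1 model with group as the only term. A named cluster was tested where its mean log2 value exceeded 1.52, the 25th percentile, and adjusted p is Benjamini-Hochberg over all 20291. On simulated data for indoline-betacyanin against control, 48 of 100 clusters changed by 1 on the log2 scale and 100 of 100 changed by 2 were recovered, with 9 false calls. All simulated clusters had the same median spread and no outlying array, and only clusters with higher means were changed. The recovery therefore does not describe tdc-1 and tbh-1, with residual SDs of 1.15 and 1.73. Nor does it describe unc-47, eat-4, cat-1 and cat-2, with means of 1.68 to 2.15. The number of arrays limits the precision. Alternatives covered the filter, normalization, variance model, array weights, samples fitted, trial as a block, and each array left out. The members and gene lists were chosen with earlier results of these data known. From the lists, the text names up to 4 genes with the smallest p per comparison, plus a few transmitter partners (bas-1, cat-4, dat-1, cho-1, unc-46, snf-11) and the sheath gene inx-8 and 9 listed GABA genes, which were chosen after their values were seen.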

Additional observations from a re-analysis of the deposited data

Results flagged for a closer look

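The authors' deposited tables carry sums of squares, which give the number of arrays per group, and ratios. From the ratios the approximate level of 1 further control, outside the arrays analysed here, can be worked out. By the indoline-betacyanin table, that control read 6.60 on the log2 scale for tdc-1 and 7.33 for tbh-1, and the phenylalanine-betaxanthin table gave 6.63 and 7.78. The 2 control arrays read 2.08 and 1.84 for tdc-1 and 1.69 and 1.55 for tbh-1, so the implied control lay far above both. For tdc-1 it also lay above the phenylalanine-betaxanthin arrays, at 5.42 to 5.67. For tbh-1 the 2 back-calculated levels lay on either side of those arrays, at 7.36 to 7.63. The same calculation put the mean of the 6 yolk protein genes at 10.1 and 10.2 on that control, against 1.71 and 1.56 on the other controls. For unc-25 it gave 3.55 and 3.70, below the 4.42 and 4.26 of the 2 controls and below the phenylalanine-betaxanthin arrays, at 3.75 to 3.85. The back-calculated levels carry the rounding and any renormalization of the tables, and the 2 tables differ by up to 0.56 for eat-4, at 1.35 and 1.91. The error sum of squares rebuilt with that control was compared with the deposited one. The ratio had a median of 1.03 and outer percentiles of 0.528 and 1.762 for indoline-betacyanin, and 1.04, 0.4 and 1.857 for phenylalanine-betaxanthin. For a single gene the order of that control and the phenylalanine-betaxanthin arrays is therefore uncertain.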

How the results depend on the processing

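The 6 counts of called members were computed under 8 alternatives and with each array left out. Fitting only the groups compared gave 2 with indoline-betacyanin against control, 5 with phenylalanine-betaxanthin against control and 0 with indoline-betacyanin against indicaxanthin, where unc-25 lost its call; array weights gave 5 with phenylalanine-betaxanthin against control and 5 against indicaxanthin. Leaving out 1 array gave 0 to 2 with indoline-betacyanin against control, 0 to 5 with phenylalanine-betaxanthin against control, 0 with indicaxanthin against control, 1 for indoline-betacyanin against indicaxanthin, 4 to 7 against phenylalanine-betaxanthin and 0 to 5 for phenylalanine-betaxanthin against indicaxanthin. Of the single log2 changes, 338 of those under the 8 alternatives kept direction and side of the threshold, 4 lost and 13 gained a call, and 11 changed sign; with arrays left out these were 474, 28, 12 and 14. The cause of these moves was not tested. The share of all tested clusters called moved too when the third indicaxanthin array was left out. It went from 17.3% to 35.4% for indoline-betacyanin against control. For phenylalanine-betaxanthin it went from 44.6% to 61% against control and from 0% to 55.1% against indicaxanthin. For the other fits that share was not computed, so their counts of members cannot be set against all clusters. No change that reversed was called in the fit reported.

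Against control with indoline-betacyanin, eat-4 became 0.055 (further quantile normalization) or 0.017 (median centring), cat-2 0.020 and tbh-1 0.12 (median centring). With indicaxanthin, unc-25 became 0.027 (trial block), 0.10 (median centring) or 0.11 (array weights), unc-47 0.0035 (median centring), and cat-1 -0.088 and tdc-1 -0.36 (array weights). For cat-2, phenylalanine-betaxanthin against indicaxanthin became -0.0061 (array weights). Over the fits that left out 1 array, signs changed within these ranges: tbh-1 with indoline-betacyanin against control, -0.11 to 0.031; with indicaxanthin against control unc-25 -0.21 to 0.19, unc-47 -0.30 to 0.015, cat-1 -0.072 to 0.15, cat-2 -0.0074 to 0.23, tdc-1 -0.41 to 1.46 and tbh-1 -0.019 to 2.84; eat-4 for indoline-betacyanin against indicaxanthin, -0.019 to 0.31; and for phenylalanine-betaxanthin against indicaxanthin unc-47 -0.15 to 0.010 and cat-2 -0.10 to 0.13.

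Over 15 pairs of arrays with the same trial number, the correlation of deviations from the group means was -0.292 to 0.101, and 1 pair passed 0.1. Over 30 pairs with different numbers it was -0.184 to 0.256, and 4 passed 0.1. With so few arrays per group, the deviations within a group are bound to each other. These correlations therefore cannot show whether a trial number marks a shared batch. With the trial number as a block, 1, 2, 0, 1, 5 and 0 members were called in the 6 comparisons, in the order indoline-betacyanin, phenylalanine-betaxanthin and indicaxanthin against control, indoline-betacyanin against indicaxanthin and against phenylalanine-betaxanthin, and phenylalanine-betaxanthin against indicaxanthin. The calls lost were tdc-1 with phenylalanine-betaxanthin against control (limma adjusted p = 0.0504) and unc-47 with indoline-betacyanin against phenylalanine-betaxanthin (limma adjusted p = 0.0616). The share of all tested clusters called with this block was not computed.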
